A study of Mus musculus with 18 samples.

Results

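The genes described here are Apoe, Apoa1, Apoa4, Apob, Ttr and Afp, 6 apolipoproteins and serum carrier proteins of the yolk sac, of the 17818 symbols in the ES3 table and 17813 in the MEF table. They were chosen by name with their ES3 and MEF levels already known, so the values that selected them are given as a description, with no test. TRIM28 (KAP1) is a corepressor brought to DNA by zinc finger proteins, at sites that gain the repressive histone mark H3K9me3. RNA came from wild-type ES3 cells, C57BL/6 embryonic stem (ES) cells grown on gelatin in serum with LIF for 4 days, and from ES3 cells taken 4 days after 4-hydroxytamoxifen (4-OHT) switched on the Cre recombinase that deletes Trim28. It also came from C57BL/6 mouse embryonic fibroblasts (MEFs), wild type after 5 days of culture and knockout 5 days after the same induction. H3K9me3 and KAP1 regions came from ES3 cells of both genotypes. Only the knockout labels name 4-OHT, so its own effect and that of the deletion cannot be told apart.

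Each RNA group was 1 library of pooled duplicate cultures, so no spread between replicates, p-value or SD could be given. Reads per library are unknown. Levels are RPKM, reads scaled to transcript length and library total, which allows levels of different genes to be set side by side. Ratios are log2((knockout + 1)/(wild type + 1)), which understates the change of genes near or under 1 RPKM. A gene counted as measured when either library of a table gave it 1 RPKM or more, and was called higher or lower at 2-fold. The tables were normalized separately, so ratios were taken within a table, and levels in ES3 cells and MEFs are only set side by side. Trim28 itself stood at 1051 RPKM in wild-type and 37.2 in knockout ES3 cells (3.54% of wild type), and at 62.8 and 5.84 RPKM in MEFs (9.29%). The median log2 ratio was 0.08 over 12024 measured ES3 genes and 0.00 over 10805 measured MEF genes. In bulk RNA, fewer cells of a type and less RNA per cell cannot be told apart.

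Apolipoproteins coat lipoprotein particles, the carriers of cholesterol and triglyceride in blood and tissue fluid. The visceral endoderm of the yolk sac secretes many of them, together with carriers such as transthyretin and alpha-fetoprotein, and supplies the embryo before the liver takes over. It also takes up maternal proteins with the endocytic receptors cubilin, amnionless and megalin. Apoe differs from the others in that many cell types make it, macrophages among them.

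The data separated the genes by level. Apoe was among the most abundant RNAs of ES3 cells, lower in the knockout, and in MEFs it was higher in the knockout. Ttr was the only other gene of the 6 to reach 1 RPKM, and only in knockout ES3 cells. Apoa1, Apoa4, Apob and Afp stayed at or under 0.209 RPKM in all 4 libraries. The name of yolk sac carriers therefore describes what these genes are known for and not a high level in these cells.

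Apoe (NM_009696, mm9 chr7:20281622-20284401, minus strand) encodes the ligand by which remnant lipoproteins bind their receptors. It stood at 944.7 RPKM in wild-type ES3 cells and at 301.9 RPKM in knockout ES3 cells. The knockout level was 32.0% of wild type, a log2 ratio of -1.64. Apoe moved from rank 24 to rank 95 among the 17818 symbols, so it remained an abundant RNA. Wild-type MEFs gave 24.2 RPKM and knockout MEFs 64.2 RPKM, 266% of wild type and a log2 ratio of 1.37. Its rank there was 2424 in wild type and 1076 in knockout. The order of the 4 levels, set side by side across tables, was ES3 wild type, ES3 knockout, MEF knockout and MEF wild type; whether neighbours in this order differ beyond their spread could not be tested. When MEF ratios were centred on the median of genes of like genomic span, the Apoe ratio was 0.95, under 2-fold, whereas its ES3 ratio was -1.69 by the same step. The MEF call therefore depended on that correction. The Apoe gene spans 2780 bp.

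Apoa1 (NM_009692, mm9 chr9:46036663-46038549, plus strand) encodes the main protein of high-density lipoprotein. ES3 cells gave 0 in the wild-type library and 0.111 RPKM in the knockout. Apoa4 (NM_007468, mm9 chr9:46048779-46051542, plus strand), a lipoprotein component made mainly by intestine, had ES3 values of 0 (wild type) and 0.135 RPKM (knockout). Both were listed at 0 in both MEF libraries. Their knockout values lay low in that library, at the 9.09th and 10.6th percentile of the 16507 genes above 0.

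Apob (NM_009693, mm9 chr12:7984479-8023305, plus strand) encodes the large structural protein around which chylomicrons and very-low-density lipoprotein are built. It was the only gene of the 6 besides Apoe above 0 in all 4 libraries. ES3 cells gave 0.0885 RPKM in wild type and 0.209 in knockout. MEFs gave 0.0291 RPKM in wild type and 0.00774 in knockout, the opposite order. All 4 values lay far under the floor of 1 RPKM, and neither difference was called.

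Ttr (NM_013697, mm9 chr18:20823914-20832383, plus strand) encodes transthyretin, which carries thyroid hormone and, with retinol-binding protein, retinol. It was listed at 0 in wild-type ES3 cells, at 1.33 RPKM in knockout ES3 cells and at 0 in both MEF libraries. Ttr passed the floor through the knockout library alone, and a gene that does so from 0 is called higher by construction. Its knockout level was at the 32.5th percentile of the genes above 0 in that library. Afp (NM_007423, mm9 chr5:90919765-90937882, plus strand), the fetal serum protein of the albumin family, was listed at 0 in wild-type ES3 cells and at 0.0535 RPKM in the knockout. The MEF values of Afp were 0 (wild type) and 0.0345 RPKM (knockout).

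**Figure D1:**
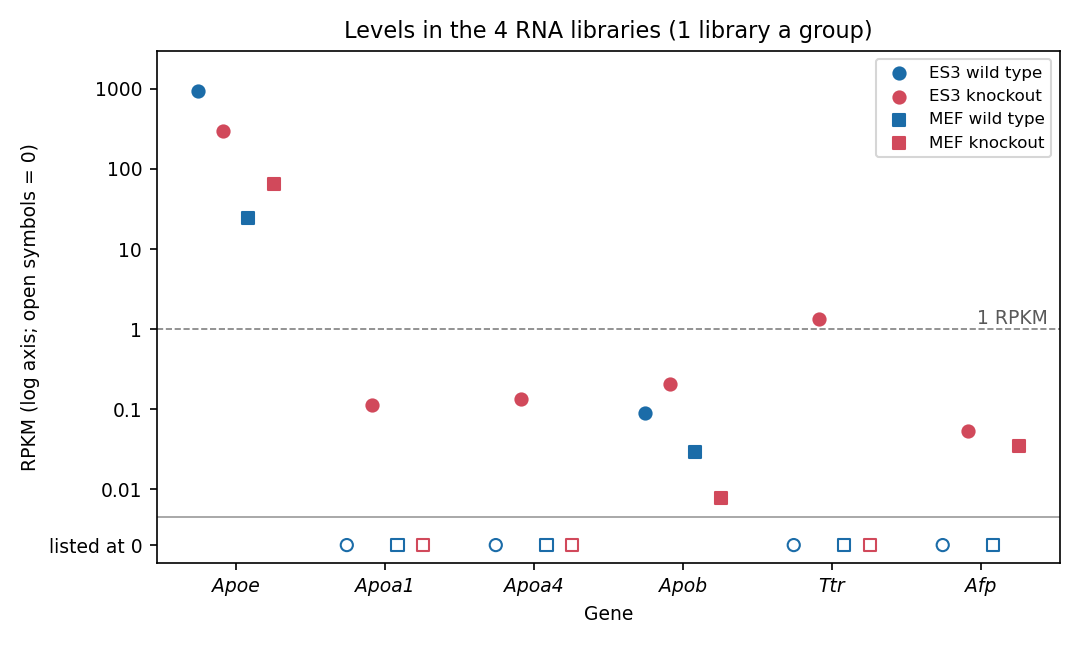
RPKM of each gene (log axis) in wild-type (blue) and knockout (red) ES3 cells (circles) and MEFs (squares), 1 library a group, with values of 0 as open symbols under the grey line. Apoe lies between 24.2 and 944.7 RPKM, Ttr reaches 1.33 RPKM in knockout ES3 cells, and the others stay at or under 0.209 RPKM.

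Counted together, 2 of the 6 genes were measured in ES3 cells, Apoe being lower and Ttr higher. Over all measured ES3 genes, 3.18% were lower and 12.5% higher at 2-fold. The knockout value was the larger one for 5 of the 6 genes, against 56% of all symbols. Of the 6, 4 were listed at 0 in wild type and above 0 in knockout, as were 890 symbols, or 4.99% of all; 2.85% went from above 0 to 0. Those 890 were 52.5% of the 1694 symbols at 0 in wild type, and their median knockout level was 0.0905 RPKM. Of them, 64 (7.19%) reached 1 RPKM, and 50 were at or above the level of Ttr. Nothing is read from these counts, because the genes were selected on the same contrast.

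In MEFs, Apoe was the only measured gene of the 6 and was higher; 0.981% of measured MEF genes were higher and 4.84% lower at 2-fold. Afp alone went from 0 to above 0, as did 2.3% of MEF symbols, while 3.02% went from above 0 to 0. The remaining 3, Apoa1, Apoa4 and Ttr, were listed at 0 in both MEF libraries.

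Promoter windows are shown because several endoderm transcription factors of the forkhead and GATA families differed between the ES3 libraries, as described further on, and these genes are textbook targets of such factors in liver and yolk sac. Windows of 250 bases before to 50 after the annotated start were taken from RefSeq (GRCm38.p6), and 5 of the 6 genes had one. Both strands were searched for letters of several motifs, none of which overlap one another in the matches found. The core promoter element was written TATAAA. Forkhead factors were given the form TGTTTGC and, as the other form, TGTTTAC. The site of GATA factors was written AGATAA. Matches are in capitals in the windows of Apoe (chr7:19699139-19699438, minus strand), Apoa1 (chr9:46228380-46228679, plus strand), Apob (chr12:7977427-7977726, plus strand) and Afp (chr5:90490464-90490763, plus strand).
Apoe promoter: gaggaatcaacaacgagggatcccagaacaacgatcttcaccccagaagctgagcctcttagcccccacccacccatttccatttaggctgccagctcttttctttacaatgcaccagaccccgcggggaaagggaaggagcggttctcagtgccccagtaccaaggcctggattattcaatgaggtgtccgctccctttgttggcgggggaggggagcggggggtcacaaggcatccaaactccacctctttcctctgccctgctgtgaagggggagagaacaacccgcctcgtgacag
Apoa1 promoter: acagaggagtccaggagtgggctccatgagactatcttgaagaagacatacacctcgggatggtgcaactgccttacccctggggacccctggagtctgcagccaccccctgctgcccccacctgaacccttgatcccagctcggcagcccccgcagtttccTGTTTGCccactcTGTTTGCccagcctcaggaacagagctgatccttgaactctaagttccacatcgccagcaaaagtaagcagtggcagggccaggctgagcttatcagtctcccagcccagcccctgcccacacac
Apob promoter: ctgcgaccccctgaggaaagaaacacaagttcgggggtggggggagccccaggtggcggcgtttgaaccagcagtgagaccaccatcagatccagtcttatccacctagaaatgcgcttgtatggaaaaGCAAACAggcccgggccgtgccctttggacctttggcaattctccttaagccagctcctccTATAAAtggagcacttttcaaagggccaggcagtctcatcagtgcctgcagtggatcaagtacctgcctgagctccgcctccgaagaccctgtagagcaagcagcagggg
Afp promoter: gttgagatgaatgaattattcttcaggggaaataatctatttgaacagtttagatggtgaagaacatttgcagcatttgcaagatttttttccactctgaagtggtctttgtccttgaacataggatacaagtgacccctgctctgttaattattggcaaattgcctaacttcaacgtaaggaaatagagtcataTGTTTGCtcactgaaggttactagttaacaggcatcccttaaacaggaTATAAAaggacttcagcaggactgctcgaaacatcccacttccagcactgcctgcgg

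The Apoa1 window held TGTTTGC at positions -88 and -75 from the start. The Apob window held it on the opposite strand at -121, shown as its reverse complement, with TATAAA at -60. The Afp window held TGTTTGC at -55 and TATAAA at -7. No searched letters were found in the Apoe window shown or in that of Apoa4. Other Apoe windows entered only the shares over all windows, and their own matches were not listed. Over all 32851 promoter windows of this length, 5.07% held TGTTTGC, 3.65% TGTTTAC, 11.2% AGATAA and 13.6% TATAAA. GC content was 57.7% for Apoe, 59.3% for Apoa1, 57.3% for Apoa4, 56.7% for Apob and 40% for Afp, with a median of 52.7% over all windows. A match describes letters only, and these genes with a match were each at or under 0.209 RPKM.

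Few genes shared the pattern of Apoe. Of 9932 genes measured in both tables, 189 were lower in knockout ES3 cells and 90 higher in knockout MEFs, and 5 were both: Apoe, Mt1, Mt2, 1190007I07Rik and Rny3. A further 61 were higher in ES3 cells and lower in MEFs, 23 were higher in both, and 11 were lower in both. Mt1, a metallothionein that binds zinc and copper, stood at 855.2 and 388.7 RPKM in wild-type and knockout ES3 cells (log2 ratio -1.14), and at 162.7 and 337.3 RPKM in MEFs (1.05). Mt2, its neighbour and homologue, stood at 764.4 and 360.0 RPKM in ES3 cells (-1.08) and at 28.3 and 63.2 RPKM in MEFs (1.13). With MEF ratios centred by gene span, Rny3 alone of the 5 remained past 2-fold in MEFs (1.43).

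By distance between profiles of log2(RPKM + 1) over the 4 libraries, each centred on its own mean, the genes closest to Apoe among 12832 were Gsta4 (0.44), Mt2 (0.45) and Tmem180 (0.69). Gsta4, a glutathione transferase, stood at 336.8 and 141.8 RPKM in wild-type and knockout ES3 cells and at 10.1 and 20.0 in MEFs. Of the 109 genes at 300 RPKM or more in wild-type ES3 cells, 8 were lower at 2-fold, Apoe, Gsta4, Mt1 and Mt2 among them. The closest profiles to Ttr were Speer7-ps1, Sectm1a and Tbx4, at 0.0145, 0.0179 and 0.0292. Profiles of Apoa1, Apoa4, Apob and Afp were nearly flat on this scale, so their closest genes, such as Mark3 and Purg, describe genes whose level hardly differed. Points of a profile share their library, and 4 values are few.

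**Figure D2:**
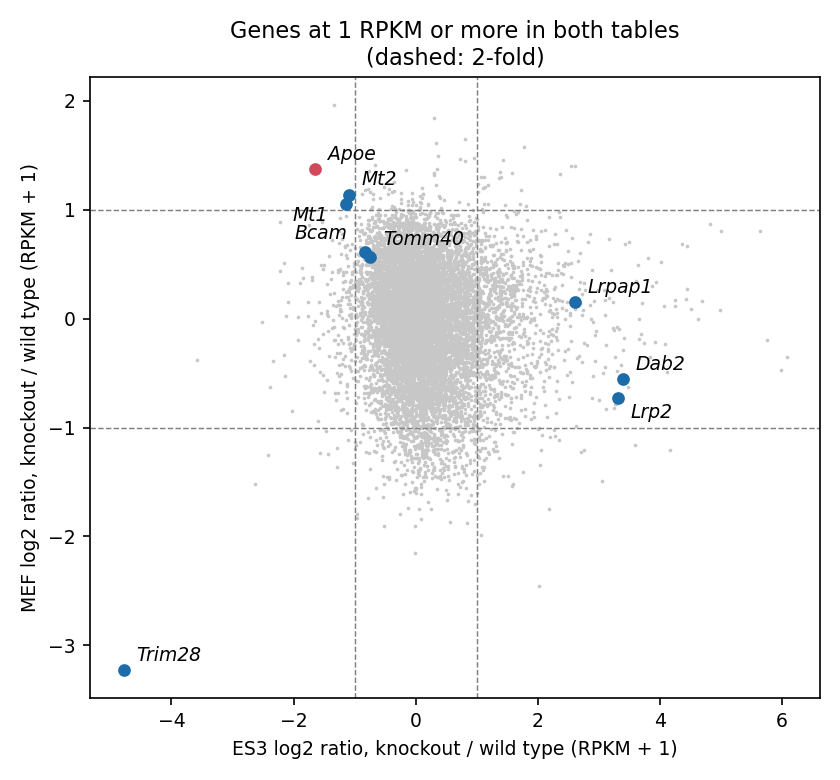
Each grey point is 1 of 9932 genes at 1 RPKM or more in both tables, with its log2 ratio of knockout to wild type in ES3 cells (x) and MEFs (y), dashed lines marking 2-fold. Apoe (red) lies at -1.64 and 1.37 beside Mt1 and Mt2, while Lrpap1, Dab2 and Lrp2 lie far to the right and within 2-fold in MEFs.

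The genes around Apoe include its relatives Apoc1, Apoc2 and Apoc4, which encode small exchangeable apolipoproteins; apoC-II is the activator of lipoprotein lipase. Apoc2, with its start 17.6 kb downstream of the Apoe start, stood at 3.41 RPKM in wild-type and 0.280 in knockout ES3 cells, a log2 ratio of -1.78. Apoc1, at 6.4 kb, stood at 16.3 and 8.76 RPKM (-0.83). Apoc4 had 0.161 RPKM in wild-type ES3 cells and 0 in the knockout. The annotated span of Apoc4 lies within that of Apoc2 on the same strand. How reads in the overlap were counted is not given, so their split is uncertain. Upstream, Tomm40, a subunit of the mitochondrial import pore, stood at 119.4 and 70.9 RPKM (-0.74), and Bcam, an adhesion receptor for laminin, at 228.4 and 128.5 (-0.82). Of 10 genes starting within 100 kb, 9 were measured in ES3 cells, 6 had a ratio below 0, Apoc2 alone was called, and the median was -0.74, beside 0.08 over all genes.

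In MEFs the same neighbours mostly had ratios above 0. Of 6 measured, 1 was below 0 and none was called, with a median of 0.41 beside 0.00 over all genes. Tomm40 stood at 36.9 RPKM in wild-type and 55.0 in knockout MEFs (0.56), and Bcam at 1.45 and 2.75 (0.61). Apoc1 was listed at 0 in both MEF libraries, and Apoc2 stood at 0.170 and 0.715 RPKM, under the floor. The neighbours of the other genes were few. Apoa1 and Apoa4 start 12.1 kb apart, and beside them Zfp259 had a log2 ratio of -0.47 in ES3 cells and 0.40 in MEFs, and Bud13 of -0.01 and 0.06. B4galt6, 80.9 kb from Ttr, had ratios of -0.35 and -0.67. Afm, an albumin relative 28.2 kb from Afp, stood at 0.451 and 0.419 RPKM in ES3 cells, and no other gene of the table started within 100 kb of Apob.

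**Figure D3:**
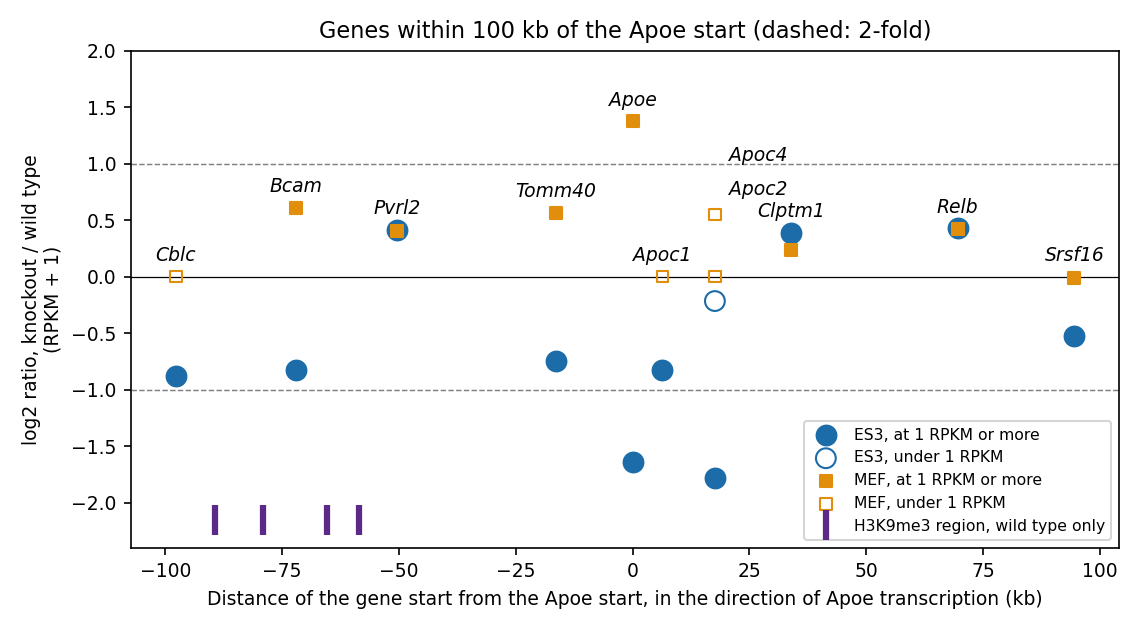
Log2 ratio of knockout to wild type in ES3 cells (blue circles) and MEFs (orange squares) against the distance of each gene start from the Apoe start, with open symbols for genes under 1 RPKM and purple bars for H3K9me3 regions found in wild type only. In ES3 cells Apoe (-1.64) and Apoc2 (-1.78) lie under the 2-fold line, and in MEFs Apoe (1.37) lies alone above it.

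H3K9me3 and KAP1 regions were then placed around each gene; the authors deposited 1 list per condition, with mm9 coordinates. Within 20 kb of a gene start, the only region beside any of the 6 genes was an H3K9me3 region of the knockout upstream of Ttr (chr18:20805617-20806273), 17.6 kb from its start. Over all 17818 genes, 24.4% had a wild-type H3K9me3 region within 20 kb, 24.3% a knockout one and 17.2% one found in wild type only. A KAP1 region lay within 20 kb of 6.94% of genes when called in wild type over input, of 4.93% when called over the knockout, and of 4.85% when called in the knockout over input. With 6 genes, 1 of 6 against such shares is no result about the genes.

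Around Apoe, 4 H3K9me3 regions found in wild type only lay 58.3 to 89.0 kb upstream, at chr7:20342675-20343186 and chr7:20349293-20350271 in Bcam, at chr7:20363413-20363739 outside the genes of the table, and at chr7:20373409-20374015 in Cblc. No knockout H3K9me3 region lay within 100 kb of the Apoe start, the nearest being 252.8 kb away. The nearest wild-type KAP1 region was 263.8 kb downstream. Bcam and Cblc, which hold 3 of the 4 regions, had ES3 log2 ratios of -0.82 and -0.88, both within 2-fold. Apoa1 and Apoa4 shared 1 wild-type-only region (chr9:46127771-46128840), 91.1 and 79.0 kb downstream of their starts.

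Ttr had the most regions. A group of 4 wild-type H3K9me3 regions lay 36.2 to 48.6 kb upstream and was overlapped by 3 knockout regions, so the mark there was called in both genotypes. Regions found in wild type only numbered 4 within 100 kb, in Dsg2 upstream and in B4galt6 downstream. A KAP1 region of the wild type lay 77.5 kb upstream in Dsg2 (chr18:20745915-20746402), with a deposited score of 54.1 over input and 55.9 over knockout, where the median over the list called against input was 59.7. It was the only KAP1 region within 100 kb of any of the 6 genes, and no KAP1 region of the knockout lay that near. Apob had a wild-type region of 27 bp and an overlapping knockout region of 182 bp at 51.4 kb upstream (chr12:7932923-7933104). A wild-type-only region lay 88.5 kb downstream of its start (chr12:8072991-8074770), beside a knockout region at 91.6 kb (chr12:8076122-8076417), and a further knockout region lay 86.9 kb upstream (chr12:7896856-7897560). Afp had no wild-type region within 100 kb and 1 knockout region 42.3 kb downstream, which overlapped Afm.

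Within 100 kb, 5 of the 6 genes had a wild-type H3K9me3 region, 3 a knockout one and 1 a KAP1 region of the wild type. The shares of all genes at that distance were 69.3%, 70.0% and 29.3%. The labels state that H3K9me3 was reduced and not gone at this time, and the lists hold 37002 wild-type and 37221 knockout regions, so a missing region does not measure how much of the mark was lost.

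**Figure D4:**
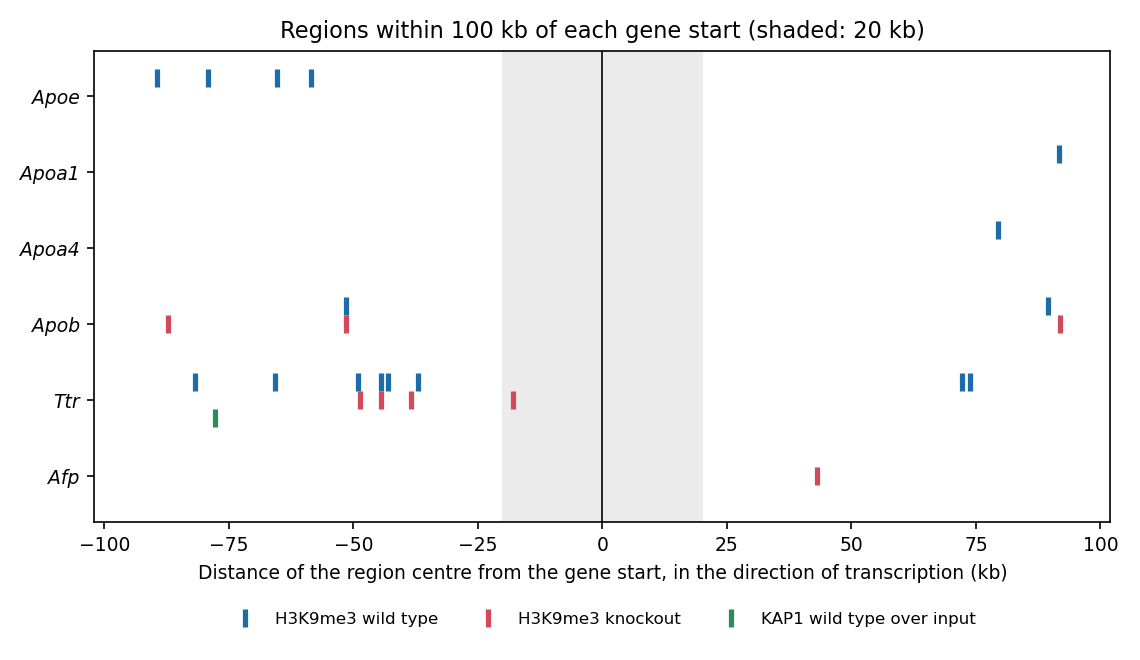
Centres of H3K9me3 regions in wild-type (blue) and knockout (red) ES3 cells and of wild-type KAP1 regions (green) by distance from each gene start, in the direction of transcription, with 20 kb to either side shaded. The only region in the shaded span is the knockout H3K9me3 region 17.6 kb upstream of Ttr, and Apoe has wild-type regions upstream and no knockout region.

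The rest of the pathway was described from lists of 130 genes, 122 of them with values and 84 measured in ES3 cells. Of these, 23 were higher and 5 lower in the knockout, with a median log2 ratio of 0.52 beside 0.08 over all genes. Over all measured ES3 genes, 12.5% were higher and 3.18% lower, shares that also belong beside the count of each list below. Of the 84, 20 passed the floor through the knockout alone, so their knockout value had to be the larger one. They include 13 of the 23 called higher. The count and the median include these 20 genes, so neither is read as a result about the pathway. Of 15 measured receptors, co-receptors and lipases, 7 were higher, 4 of these through the knockout alone, and none lower. Their median ratio was 0.80. Cubn, the receptor for apoA-I and albumin, had 0.978 RPKM in wild-type cells and 46.4 in knockout cells (4.58), and its partner Amn at 0.960 and 34.4 (4.17). Lrp2 (megalin) stood at 5.09 and 59.8 RPKM (3.32), and its adaptor Dab2 at 0.327 and 12.9 (3.39). Lrpap1, the chaperone of this receptor family, stood at 33.0 and 205.3 RPKM (2.60).

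Of 10 measured genes for building lipoproteins, 2 were higher and none lower. The median ratio was 0.67. P4hb, a subunit of the microsomal triglyceride transfer complex as well as a disulfide isomerase, stood at 151.0 and 352.5 RPKM (1.22), and Soat1, which esterifies cholesterol, at 9.02 and 28.6 (1.56). Mttp, which loads lipid onto apoB, stood at 0.428 and 1.20 RPKM (0.62). Its level, like that of Apob, stayed low. Among 6 other measured apolipoproteins, Clu (clusterin) was higher, at 2.66 and 68.1 RPKM (4.24), Apoc2 was lower, and the median was -0.23. Apoa2, which accompanies apoA-I on high-density lipoprotein, stood at 13.0 and 11.0 RPKM (-0.23), above Apoa1 in both libraries.

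Of 5 other measured serum proteins, none was higher, and Trf (transferrin), the iron carrier, was lower at 13.9 and 5.76 RPKM (-1.14). Gc, the vitamin D carrier, stood at 0.458 and 1.26 RPKM (0.64). Rbp4, the retinol carrier that Ttr binds, stood at 0.262 and 0.293 RPKM. The retinol receptor Stra6 was higher (0.0138 and 2.55 RPKM, 1.81), and the retinoic acid binding protein Crabp1 was lower (15.9 and 5.79 RPKM, -1.32); of 9 measured genes of retinol and thyroid hormone handling, 3 were higher, each through the knockout alone, and 1 lower. Of 10 measured genes of cholesterol efflux and the liver X receptors (LXR), which regulate Apoe in macrophages, 3 were higher and none lower, among them Abca1 (1.14) and Pltp (34.1 and 74.3 RPKM, 1.10). Abca1 was under 2-fold with ratios centred by gene span (0.92). None of 16 measured genes of cholesterol synthesis was called, with a median of -0.09.

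Of 23 transcription factors of endoderm with values, 13 were measured, 7 of them higher and 2 lower. Of the 13, 8 passed the floor through the knockout library alone, among them 6 of the 7 called higher. The knockout value of those 8 had to be the larger one, so nothing is read from the count. Gata4 stood at 0.649 and 49.5 RPKM (4.94) and Foxa2 at 0.109 and 9.35 (3.22). Hnf4a, a regulator of Apob, Apoa1 and Ttr in liver, reached 2.21 RPKM from 0.106 (1.54). Nr5a2, a nuclear receptor, was among those lower, at 8.48 and 1.71 RPKM (-1.81). RNA of the 4 low carriers thus stayed at or under 0.209 RPKM in the library in which these factors and the receptors were higher.

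**Figure D5:**
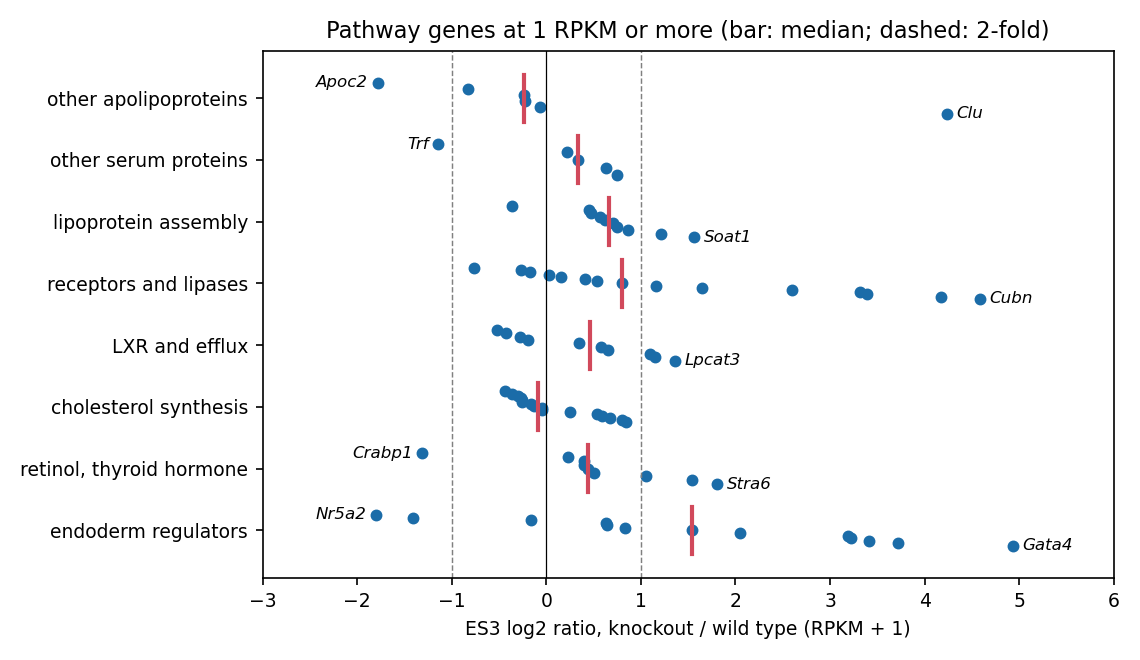
Each point is a measured gene of a pathway list, with its ES3 log2 ratio of knockout to wild type; red bars are list medians and dashed lines mark 2-fold. Cubn (4.58), Amn (4.17) and Gata4 (4.94) lie furthest to the right with Clu (4.24), and 20 of the 84 genes passed the floor through the knockout alone.

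Marker lists of cell types are given beside these values. Visceral endoderm markers summed to 10.2 RPKM in wild-type and 182.3 in knockout ES3 cells. Of 9 markers, 8 were measured and all 8 were higher, against 12.5% of all measured ES3 genes. Amn, Cubn, Dab2 and Hnf4a were among those that passed the floor through the knockout alone. Their knockout value had to be the larger one, so nothing is read from the count. This list shares 6 of its 9 genes with the pathway lists, Amn, Cubn, Lrp2, Dab2, Hnf4a and Foxa1, which made up 156.1 of the 182.3 RPKM, so it adds little to them. Its other 3 genes, Ihh, Cited1 and Spink3, summed to 2.66 and 26.2 RPKM and were each higher. With that wild-type sum, not all 3 reached the floor in wild type, so this is not read as a separate result. Foxa1, a defining member, stayed at 0.375 RPKM. Parietal endoderm markers summed to 80.8 and 1058 RPKM, with 7 of 7 higher. Their lowest wild-type value was 0.0621 RPKM, so passing the floor rested in part on the knockout library, and this count is not read either. Hepatocyte markers summed to 1.80 and 1.26 RPKM, with Cps1 and G6pc listed at 0 in both libraries. Pluripotency markers, which define ES cells, summed to 1254 and 632.7 RPKM, with 4 of 6 lower and Pou5f1 at 820.2 and 493.5. The part of each in the Apoe, Ttr and carrier values was not tested.

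Macrophage markers are given because macrophages make Apoe. Their ES3 sums were 173.2 RPKM (wild type) and 91.8 (knockout), mostly from Laptm5 (149.6 and 65.0) and Cd68. Csf1r, Ptprc, Lyz2 and Aif1 were listed at 0 in wild type and above 0 in knockout, and C1qa at 0 in knockout. These stayed under the floor in both ES3 libraries. In MEFs the sum was 125.0 and 158.8 RPKM, with 8 of 9 markers measured, none called and a median log2 ratio of 0.34. Lyz2 stood at 75.6 and 84.4 RPKM in MEFs, and C1qa at 16.7 and 31.5 (0.87). These markers were above 0 in both MEF libraries, and the ratio of each lay under that of Apoe (1.37); their part in the Apoe ratio was not tested. Fibroblast markers summed to 3565 and 3062 RPKM in MEFs.

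In MEFs, 61 pathway genes were measured, none was higher and 1 was lower. The median ratio was -0.18. The lower gene was Lrp1, a large receptor that takes up apoE-bearing remnants, at 179.7 and 68.4 RPKM (-1.38). With ratios centred by gene span, Lrp1 was within 2-fold (-0.87). Pltp, a lipid transfer protein regulated with Apoe by LXR in macrophages, had a ratio of 0.98, just under the threshold. The receptor list had a median of -0.55 in MEFs and 0.80 in ES3 cells; the difference between cell types was not tested.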

How the data were processed

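The authors deposited RPKM values per RefSeq transcript for ES cells and for MEFs; Bowtie and mm9 are named, per the submitters' processing notes, and no source used here gives the read counter or its strand rule. Duplicates were pooled before sequencing, per the labels' protocols. The ES columns, named wild type and knockout, were read as ES3 because the other ES pair is a knockdown. No per-sample column was left unused (0). H3K9me3 regions were deposited as coordinates. KAP1 peaks also hold a score that the authors deposited with no stated scale.

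Where a symbol had several transcripts, the one with the largest mean RPKM represents it. Ratios used a pseudocount and a floor of 1 RPKM; the script was tested on simulated data. A few low genes share a ratio between libraries (0.977 in 195 of 3458 MEF genes under 0.5 RPKM, 1.458 in 36 of 2606 ES3 genes), from which whole reads were not recovered, so depth is unknown. Distances run from the gene start, strand considered, to the nearest region edge. Python 3.11.15, numpy 2.4.6, pandas 2.3.3 and matplotlib 3.10.9 were used. Genes named are the 6 members, up to 4 measured genes per list with the largest absolute ratio and any that neighbour a member, genes starting within 100 kb, the 3 closest profiles, and the genes opposite in both tables. Other listed genes, such as Mttp, Rbp4 and Apoa2, were named after their values were seen. Members and lists were chosen with earlier results of these data known. Alternatives were other pseudocounts, floors, centrings, thresholds, transcript sums and windows. The knockdown RNA and H3K27ac libraries were not analysed here, and some listed genes are counted but not reported by name.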

Additional observations from a re-analysis of the deposited data

Results flagged for a closer look

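The log2 ratio of Apoe was -1.64 in ES3 cells and 1.37 in MEFs, a difference of -3.02 (ES3 minus MEF). The only library pair of one cell type went down and that of the other went up. The difference was not tested, since each group held 1 library, and with MEF ratios centred by gene span the MEF ratio was 0.95.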

How the results depend on the processing

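Apoe stayed lower in ES3 cells under every alternative run, and no result changed direction. Of single-gene results at or above the floor of the alternative, 181 kept their side of the threshold, 9 lost it and 2 gained it. Genes that fell under that floor were left out of this tally. With a filter at 5 RPKM these included Ttr, Apoc2 and Hnf4a in ES3 cells, so their lost calls are not among the 9. Ttr was the 1 gene of the 6 called higher in ES3 cells; with a pseudocount of 5 RPKM, a filter at 5 RPKM or a 3-fold threshold the count was 0. Apoe was the 1 called higher in MEFs; centred within bins of gene span, or at 3-fold, the count was 0. Of the pathway genes in ES3 cells, 23 were higher and 5 lower. At 3-fold these were 14 and 2, and the lower count was 1 with a pseudocount of 5 RPKM and 3 with a filter at 5 RPKM. In MEFs 0 were higher and 1 lower, against 1 and 5 with a pseudocount of 0.1 RPKM, and 0 lower at 3-fold. A region lay near 1 of the 6 genes at 20 kb, 0 at 10 kb, 2 at 50 kb and 6 at 100 kb.

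Each group is 1 library of pooled cultures, so no value has a replicate check. No paired analysis was possible because each group holds 1 library. Depth is unknown, so the values of Apoa1, Apoa4, Apob and Afp cannot be given a counting error, and a value of 0 does not show absence.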
